A study of Mus musculus with 12 samples.

Results

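The interferon-stimulated genes described here are a set of 36 mouse genes, chosen by symbol, that includes transcription factors, antiviral enzymes, sensors of foreign nucleic acid and interferon-induced GTPases. The platform annotation named a probe for 35 of the 36, by 68 probes, out of 19057 genes with a named probe. Of these, 31 genes and 44 probes were above background often enough to be tested, out of 12618 genes and 23984 probes. Whole kidneys of male C57BL/6J mice, an inbred laboratory strain, were profiled at postnatal day 28 on Illumina bead arrays, 1 array per sample. The 6 control samples and the 6 ethanol samples were told apart by their titles. In the ethanol group the mothers drank 10% (v/v) ethanol freely between fertilization and gestation day 8.5, so the kidneys were sampled long after the exposure had ended. The same exposure text is attached to the control samples too, and what the control mothers drank is not given in the sources used here. Nothing says which animals shared a litter or whether each sample was a separate animal, so the p-values measure the spread between these samples.

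Type I interferons bind a receptor on nearly every cell type, and the receptor's kinases activate a complex of STAT proteins and IRF9. The complex enters the nucleus and binds the interferon-stimulated response element, a pair of GAAA repeats, in the promoters of its target genes. Interferon gamma acts through another receptor and another STAT dimer, which binds the gamma-activated site, and it is the stronger inducer of the guanylate-binding proteins and the immunity-related GTPases. A low interferon tone is known in healthy tissues, and in kidney both epithelial cells and resident immune cells can express these genes.

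The promoters of 26 of the 36 genes were matched in RefSeq (GRCm38.p6). The response element was searched as GAAA, any 2 bases and GAAA again, on either strand in the 250 bases before the transcription start, and 13 of the 26 genes held it (50%), beside 936 of 27025 genes with a promoter in the table (3.46%). Over windows rather than genes, 978 of 32851 held it (2.98%). The gamma-activated site, searched as TTCNNNGAA, was found in 7 of the 26 (26.9%), beside 8.13% of all genes. The 6 promoters that follow carry the response element and were picked by the unadjusted p of their genes. No difference between these genes was tested. Isg15, Bst2 and Oas1g were lower in the ethanol group at an unadjusted p under 0.05, whereas Rsad2, Irgm1 and Gbp2 were not. Each is the 160 bases before the start site, 5′ to 3′ on the gene's strand, and the capitals mark the response element or its reverse complement.
Isg15: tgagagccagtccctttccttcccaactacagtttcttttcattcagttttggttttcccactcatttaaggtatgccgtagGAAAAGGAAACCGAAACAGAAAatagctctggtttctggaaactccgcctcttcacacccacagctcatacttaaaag
Bst2: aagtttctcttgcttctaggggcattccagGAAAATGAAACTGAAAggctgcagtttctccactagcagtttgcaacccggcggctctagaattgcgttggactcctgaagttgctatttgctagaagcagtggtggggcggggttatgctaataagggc
Oas1g: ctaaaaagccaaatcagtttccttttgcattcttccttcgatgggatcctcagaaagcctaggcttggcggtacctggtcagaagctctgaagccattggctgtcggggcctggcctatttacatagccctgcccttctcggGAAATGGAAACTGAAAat
Rsad2: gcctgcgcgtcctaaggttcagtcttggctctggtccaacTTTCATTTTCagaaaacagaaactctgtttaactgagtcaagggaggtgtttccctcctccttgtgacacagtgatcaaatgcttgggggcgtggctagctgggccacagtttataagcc
Irgm1: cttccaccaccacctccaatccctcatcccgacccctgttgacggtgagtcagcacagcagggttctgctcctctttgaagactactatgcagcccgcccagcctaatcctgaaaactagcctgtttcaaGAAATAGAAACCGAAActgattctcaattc
Gbp2: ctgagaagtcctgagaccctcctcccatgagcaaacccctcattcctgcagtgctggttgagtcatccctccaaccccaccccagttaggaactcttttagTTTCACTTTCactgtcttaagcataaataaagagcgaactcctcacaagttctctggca
These windows lie at chr4:156200819-156200978 (minus strand) for Isg15, chr8:71537473-71537632 (minus strand) for Bst2, chr5:120887614-120887773 (minus strand) for Oas1g, chr12:26456453-26456612 (minus strand) for Rsad2, chr11:48871421-48871580 (minus strand) for Irgm1 and chr3:142620503-142620662 (plus strand) for Gbp2. Counted back from the start site, Isg15 held 3 overlapping matches, beginning at -78, -72 and -66. Bst2 held 2 overlapping matches, at -130 and -124, and the first of them overlapped a TTCNNNGAA that began at -136. Oas1g held 2 overlapping matches at -18 and -12, and Irgm1 held 2 at -30 and -24. Rsad2 and Gbp2 held 1 each, at -120 and -59. In this shorter window 10 of the 22 tested genes with a promoter held the element (45.5%), beside 2.00% of all genes. The median log2 difference between ethanol and control was -0.06 for those 10, with 6 below 0, and -0.08 for the 12 without it, with 8 below 0.

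The arrays were similar in how much they detected, with 50.4% to 56.9% of all probes above background. Control 4 stood apart. It had the lowest quality weight (0.266, the next being 0.524 in ethanol 6), the lowest median correlation with the other arrays (0.969) and the lowest score on the first principal component of all tested probes (-62.5, against 45.7 in ethanol 2 and 37.5 in ethanol 3 at the other end). It was also the lowest array for 10 of the 31 tested interferon-stimulated genes, beside 19.3% of all tested genes, and the highest for 4, beside 24.0%. For the brightest probe of each member, log2 differences that moved by over 1.5 times or changed sign without it are therefore given both ways. Markers of kidney epithelium were above background on every array for the 9 that were tested, among them the proximal tubule phosphate transporter Slc34a1 and the tubular protein Umod.

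Most of the set was detected in both groups. Of the 31 tested genes, 29 were above background on 12 of 12 arrays. The exceptions were Oas2 (4 control and 5 ethanol arrays) and Parp9 (5 control and 6 ethanol arrays). Irgm1, Ifi27, Ifit3 and Rsad2 had mean log2 intensities above 11 in controls, on probes whose brightness cannot be set against each other as amounts of RNA. Members below the limit for testing were few. Ifit1, an RNA-binding antiviral protein, and Oas1a, a 2′-5′ oligoadenylate synthetase, were above background on 0 of 12 arrays. Mx1, of the dynamin-like GTPase family, and Xaf1, an interferon-induced regulator of apoptosis, were also dim. By their best probes, each reached background on 2 control arrays and 0 ethanol arrays. Ifi44 had no named probe. In all, 13 of the 68 probes were never above background.

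**Figure D1:**
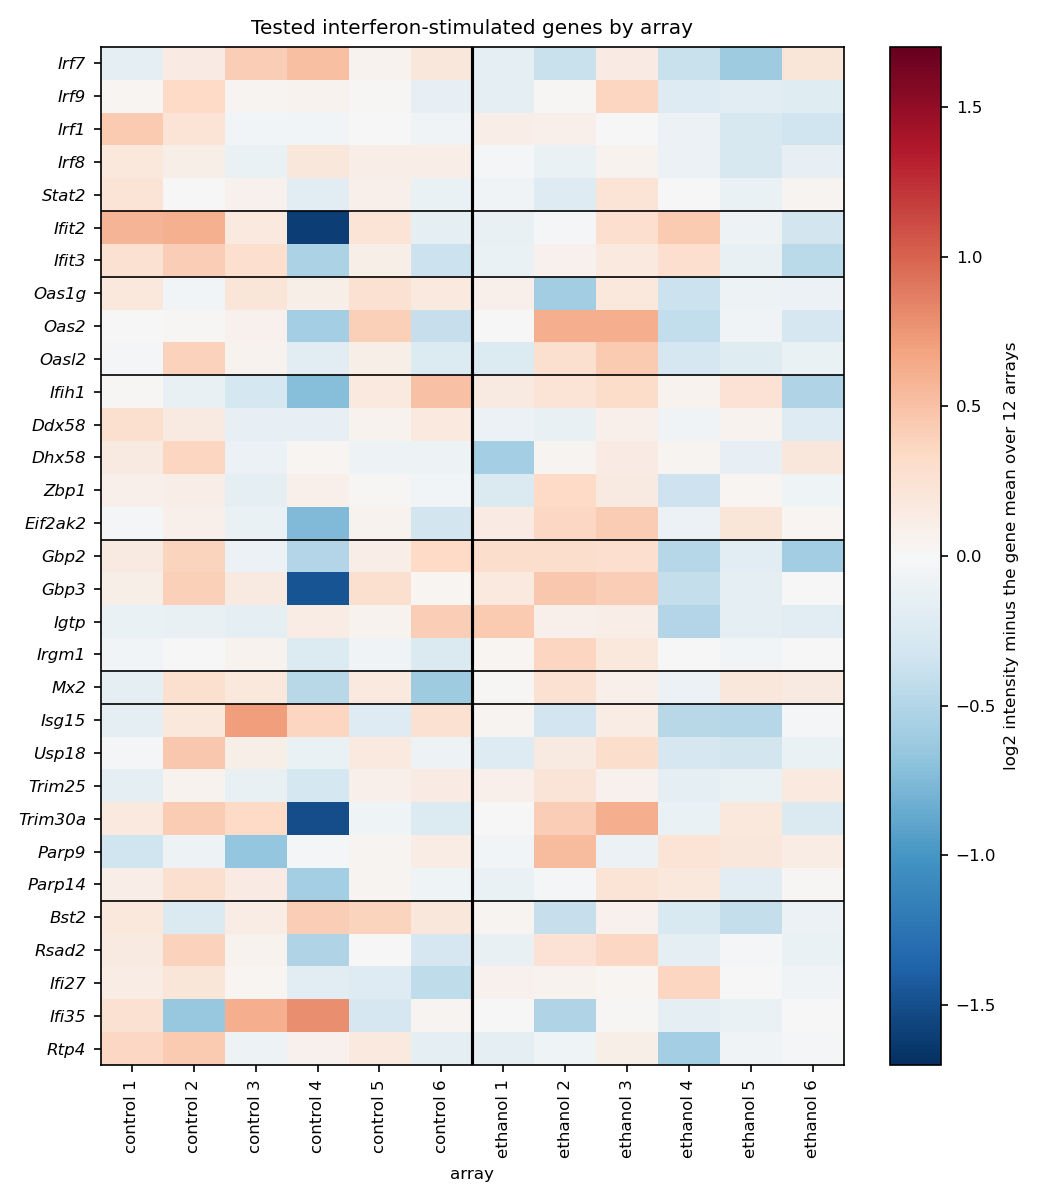
Log2 intensity of the 31 tested genes on the 12 arrays, each gene shown as its difference from its own mean over all arrays (colour, log2 units) and grouped by role. Control 4 is the lowest array for Ifit2, Gbp3 and Trim30a and the highest for Irf7, while ethanol 5 is the lowest for Irf7, Isg15 and Bst2.

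No interferon-stimulated gene was called between ethanol and control by limma at an adjusted p under 0.05. The percent called was 0 over all 23984 probes, of which 2915 (12.2%) had an unadjusted p under 0.05. The smallest adjusted p was 0.301 over all probes and 0.379 among the members. At an unadjusted p under 0.05, 4 members were lower in ethanol (12.9%, beside 4.95% of all tested genes) and 1 was higher (3.23%, beside 4.72%). The log2 difference was below 0 for 18 of 31 members (58.1%), beside 45.4% of all tested genes, and its median was -0.04, beside 0.02. In none of the 31 genes were the groups fully separate, beside 0.476% of all tested genes. Without control 4, 22 of 31 members lay below 0 and the median was -0.10, with all genes again at 0.02. At an unadjusted p under 0.05, 2 were then lower and 0 higher. In whole kidney, fewer cells of a type and less RNA per cell cannot be told apart.

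**Figure D2:**
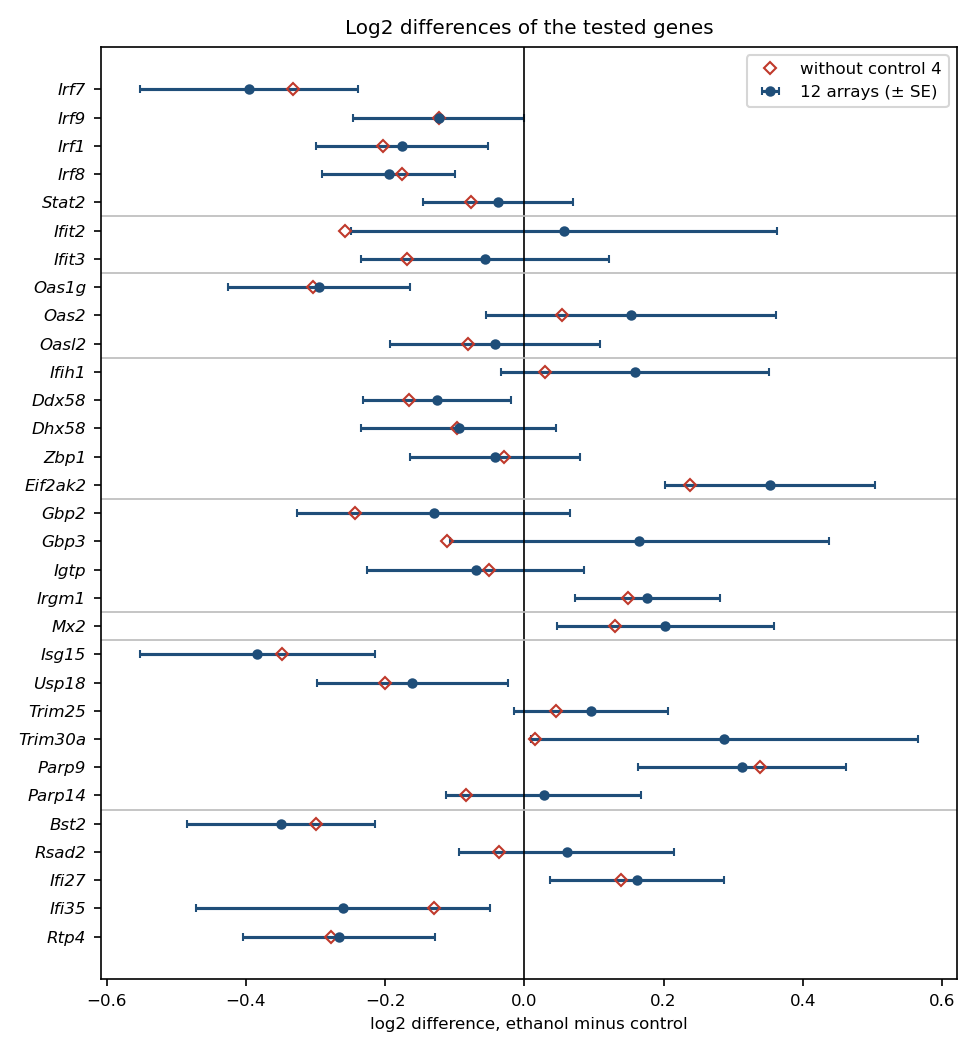
Log2 difference, ethanol minus control, with its standard error for the 31 tested genes, ordered by role, with a second marker for the difference without control 4. Irf7, Isg15, Bst2 and Oas1g lie lowest on the side of controls and Eif2ak2 lies highest on the side of ethanol, and Ifit2, Gbp3, Parp14 and Rsad2 move to the other side of 0 without control 4.

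The 5 transcription factors all lay below 0, with a median of -0.18. Irf7, the interferon-induced factor that amplifies interferon production, measured from 7.09 to 7.74 in controls (median 7.40) and from 6.63 to 7.44 in ethanol (median 6.97), in log2 intensity. Ethanol 1, 2, 4 and 5 lay below every control, ethanol 1 by little, while ethanol 3 and 6 lay inside the control range. The means were 7.43 ± 0.24 and 7.04 ± 0.32 (SD, n = 6 each), a log2 difference of -0.40 ± 0.16 (SE), with a limma p of 0.0241, an adjusted p of 0.379 and an exact permutation p of 0.039 over all assignments of the arrays. Without control 4, the highest array for Irf7, the difference was -0.33 and no longer had an unadjusted p under 0.05. Irf8, a factor of myeloid and B cells, measured from 8.64 to 8.95 in controls (median 8.86) and from 8.49 to 8.81 in ethanol (median 8.64). Its log2 difference was -0.20 ± 0.10 (SE, n = 6 each), with a limma p of 0.0606, an adjusted p of 0.426 and an exact permutation p of 0.0173, and its groups overlapped through control 3 alone, at 8.64. Irf1, which acts early downstream of interferon gamma, was the brightest factor, at 10.66 to 11.17 in controls (median 10.70) and 10.37 to 10.82 in ethanol (median 10.67). The Irf1 groups overlapped widely, with a log2 difference of -0.18 ± 0.12 (SE), and its other tested probes gave -0.29 and -0.23. The probe at -0.23 was dim, with means of 5.29 and 5.06, and above background on 6 control and 2 ethanol arrays. It met the limit for testing through the controls, where it was higher, so its difference is no separate support. Irf9 and Stat2, the partners in the interferon-activated complex, differed by -0.12 and -0.04, the Stat2 value being -0.08 without control 4.

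Isg15, a ubiquitin-like protein that is conjugated to other proteins after interferon, had log2 intensities from 6.67 to 7.61 in controls (median 7.12) and from 6.41 to 7.02 in ethanol (median 6.72). Ethanol 2, 4 and 5 again lay below every control, and controls 1 and 5 lay among the ethanol samples. The log2 difference was -0.38 ± 0.17 (SE, n = 6 each), with a limma p of 0.0389, an adjusted p of 0.402 and an exact permutation p of 0.0606. Bst2, the membrane protein tetherin that holds budding virus at the cell surface, measured from 6.83 to 7.50 in controls (median 7.27) and from 6.67 to 7.15 in ethanol (median 6.90). Control 2 was the one control inside the ethanol range. Its log2 difference was -0.35 ± 0.13, with a limma p of 0.0207, an adjusted p of 0.379 and an exact permutation p of 0.0281. Without control 4 the differences were -0.35 for Isg15 and -0.30 for Bst2, and of the pair Bst2 alone still had an unadjusted p under 0.05.

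**Figure D3:**
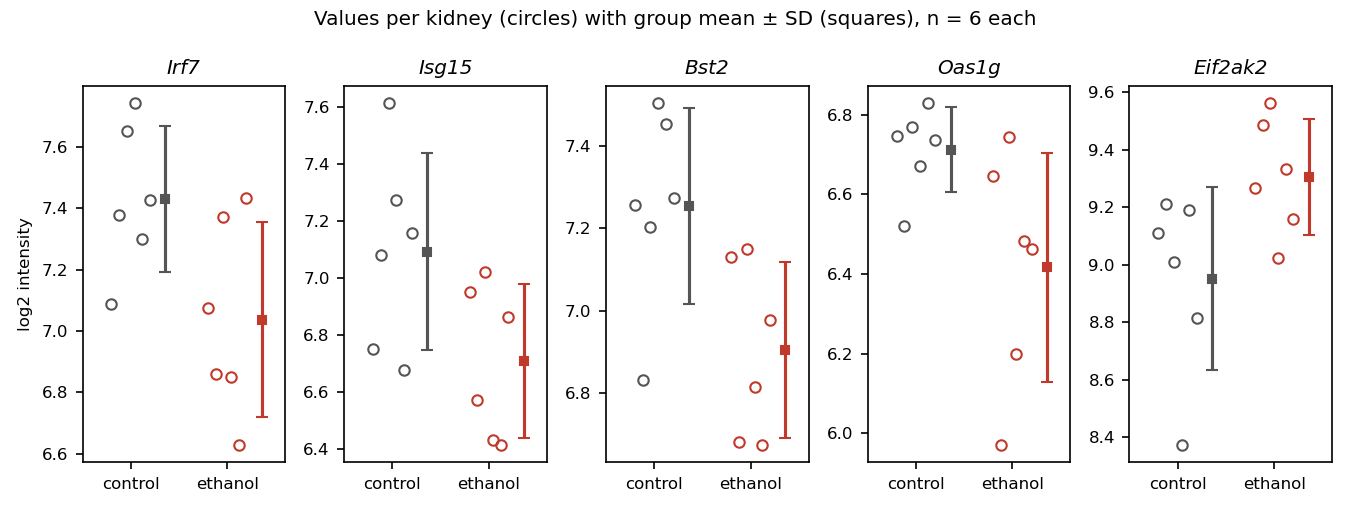
Log2 intensity of Irf7, Isg15, Bst2, Oas1g and Eif2ak2 in each of the 6 control and 6 ethanol samples (points), with the group mean and SD. The groups overlap in every panel, and the controls of Oas1g lie closer together than its ethanol samples.

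The OAS enzymes make 2′-5′ oligoadenylates that activate RNase L. Of the 4 members 3 were tested, and 2 of these lay below 0. Oas1g measured from 6.52 to 6.83 in controls (median 6.74) and from 5.97 to 6.74 in ethanol (median 6.47). The controls were close together, with an SD of 0.11 against 0.29 in ethanol, and ethanol 2, 4, 5 and 6 lay below all of them. The log2 difference was -0.30 ± 0.13 (SE, n = 6 each), with a limma p of 0.0402, an adjusted p of 0.402 and an exact permutation p of 0.026. It was -0.30 without control 4, still at an unadjusted p under 0.05. Of the 5 Oas1g probes 1 was tested, another was above background on 2 control arrays and the rest on 0, and cross-hybridisation with the closely related Oas1a was not tested. Oasl2, the brightest of the group, ranged from 10.51 to 11.14 in controls (median 10.76) and from 10.46 to 11.19 in ethanol (median 10.58). These groups coincided, with a log2 difference of -0.04 on this probe and 0.08 on its other tested probe. Without control 4 the first of these was -0.08. Oas2 differed by 0.15, and by 0.05 without control 4, its lowest array.

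The IFIT family includes proteins that bind viral RNA lacking the host cap methylation, among them Ifit1, which was too dim to test. Ifit2 had the widest spread of all members, with a within-group SD of 0.615 that lay at the 97.4th percentile of all tested genes. It measured from 7.91 to 10.11 in controls (median 9.71) and from 9.19 to 9.96 in ethanol (median 9.45). Control 4 was at 7.91 and the other controls were between 9.36 and 10.11. The log2 difference was 0.06 ± 0.31 (SE, n = 6 each) and became -0.26 without control 4. On the other tested probe of Ifit2 it was 0.24 over the 12 arrays, again with control 4 lowest, at 7.83. The group medians of that probe were 9.44 in controls and 9.40 in ethanol. Ifit3, the brighter gene, ranged from 10.59 to 11.55 in controls (median 11.31) and from 10.66 to 11.41 in ethanol (median 11.11). Its groups overlapped, with a log2 difference of -0.06 that was -0.17 without control 4. The other tested probe of Ifit3 gave -0.42 ± 0.23 (SE), with a limma p of 0.091 and an adjusted p of 0.474. That probe was dimmer, with means of 7.07 in controls and 6.65 in ethanol.

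The nucleic acid sensors were mixed, with 3 of 5 below 0 and a median of -0.04. Eif2ak2, the kinase PKR that halts translation when it binds double-stranded RNA, measured from 8.37 to 9.21 in controls (median 9.06) and from 9.02 to 9.56 in ethanol (median 9.30). Control 4 was the lowest sample, and ethanol 4 and 6 lay within the control range. The log2 difference was 0.35 ± 0.15 (SE, n = 6 each), with a limma p of 0.0339, an adjusted p of 0.391 and an exact permutation p of 0.0368. Without control 4 it was 0.24 and no longer had an unadjusted p under 0.05. The RNA helicases of the RIG-I family gave 0.16 for Ifih1 (MDA5), -0.13 for Ddx58 (RIG-I) and -0.09 for Dhx58 (LGP2). Control 4 was the lowest array for Ifih1, and without it that difference was 0.03. The other tested probes of Dhx58 gave -0.12 and -0.25, the last being above background on 5 control and 3 ethanol arrays. Zbp1, a sensor of Z-form nucleic acid that can trigger necroptosis, gave -0.04.

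The guanylate-binding proteins and immunity-related GTPases, which act on the vacuoles of intracellular pathogens, had 2 members on each side of 0, and 3 of 4 below 0 without control 4. Irgm1 was the brightest member of the whole set, from 13.40 to 13.70 in controls (median 13.59) and from 13.59 to 14.01 in ethanol (median 13.67). It varied little, with a within-group SD of 0.141, and its log2 difference was 0.18 (limma p = 0.111, exact permutation p = 0.0606, n = 6 each) on this probe and 0.09 on its other tested probe. Gbp3 measured from 7.80 to 9.66 in controls (median 9.39) and from 8.86 to 9.72 in ethanol (median 9.35). Control 4 was at 7.80 and the other controls at 9.29 to 9.66, so the log2 difference moved from 0.17 to -0.11 when control 4 was left out. The other tested probe of Gbp3 gave 0.10 over all arrays, again with control 4 lowest, at 7.70. The group medians of that probe were 9.27 in controls and 9.09 in ethanol. Gbp2 gave -0.13, and -0.24 without control 4, and Igtp gave -0.07.

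Among the genes of ISG15 conjugation, ubiquitination and ADP-ribosylation, 4 of 6 lay above 0, with a median of 0.06, and without control 4 it was 3 of 6, with a median of -0.03. Trim30a, a ubiquitin ligase that restrains inflammatory signalling, measured from 7.27 to 9.21 in controls (median 8.82) and from 8.52 to 9.39 in ethanol (median 8.86). Control 4 was the lowest sample and the other controls lay between 8.54 and 9.21, with a log2 difference of 0.29 ± 0.28 that was 0.02 without control 4. Trim25, the ligase that activates RIG-I, was the brightest of the group, at 10.31 to 10.75 in controls (median 10.58) and 10.46 to 10.82 in ethanol (median 10.69). Its groups overlapped, with a log2 difference of 0.10, or 0.05 without control 4, and its other tested probe gave 0.07. Usp18, the protease that removes ISG15 and dampens the receptor, gave -0.16. The ADP-ribosyltransferases Parp9 and Parp14 gave 0.31 ± 0.15 (SE, adjusted p = 0.418) and 0.03, the Parp14 value being -0.08 without control 4. On the other tested probe of Parp14 the difference was 0.06. Parp9 was dim, at a mean of 5.21 in controls and 5.53 in ethanol. Its other tested probe gave 0.30, at an unadjusted p under 0.05, while above background on 1 control and 5 ethanol arrays. That probe met the limit for testing mainly through the ethanol arrays, where it was higher, so its p-value is no separate support. The Parp9 difference was 0.17 with an offset of 50 and 1.09 from the unmodified deposited values, with an unadjusted p above 0.05 in both.

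Of the remaining effectors, Ifi27, a mitochondrial protein, was the brightest, at 11.55 to 12.19 in controls (median 11.90) and 11.93 to 12.35 in ethanol (median 12.03). The groups overlapped, with a log2 difference of 0.16 on this probe and 0.04 on its other tested probe. Rsad2, the radical-SAM enzyme viperin that makes a chain-terminating nucleotide, measured from 10.54 to 11.45 in controls (median 11.08) and from 10.89 to 11.40 in ethanol (median 10.99). Its log2 difference was 0.06 and was -0.04 without control 4. Rtp4 gave -0.27, with means of 6.28 ± 0.24 and 6.01 ± 0.23 (SD, n = 6 each). Ifi35 gave -0.26, and -0.13 without control 4, its highest array. Mx2, of the same GTPase family as Mx1, gave 0.20, and 0.13 without control 4.

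The members did not vary over the kidneys as a single block. After each gene was centred on its group mean, the 465 pairs of tested members had a median Pearson r of 0.23 over 12 arrays (0.21 without control 4), and 46 pairs exceeded 0.7 (9.89%), beside 3.79% of the pairs that members formed with all other tested genes. All pairs share the same arrays, and these correlations describe them without a test. The closest pair was Oasl2 and Usp18, at 0.979 with and 0.978 without control 4. Oasl2 and Irf9 stood at 0.906, and Eif2ak2 and Rsad2 at 0.915 (0.873 without control 4). Ifit2 and Ifit3 gave 0.857 (0.899 without it). Other high pairs rested on that array, such as Ifit2 and Gbp3, at 0.789 with it and 0.0163 without it.

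**Figure D4:**
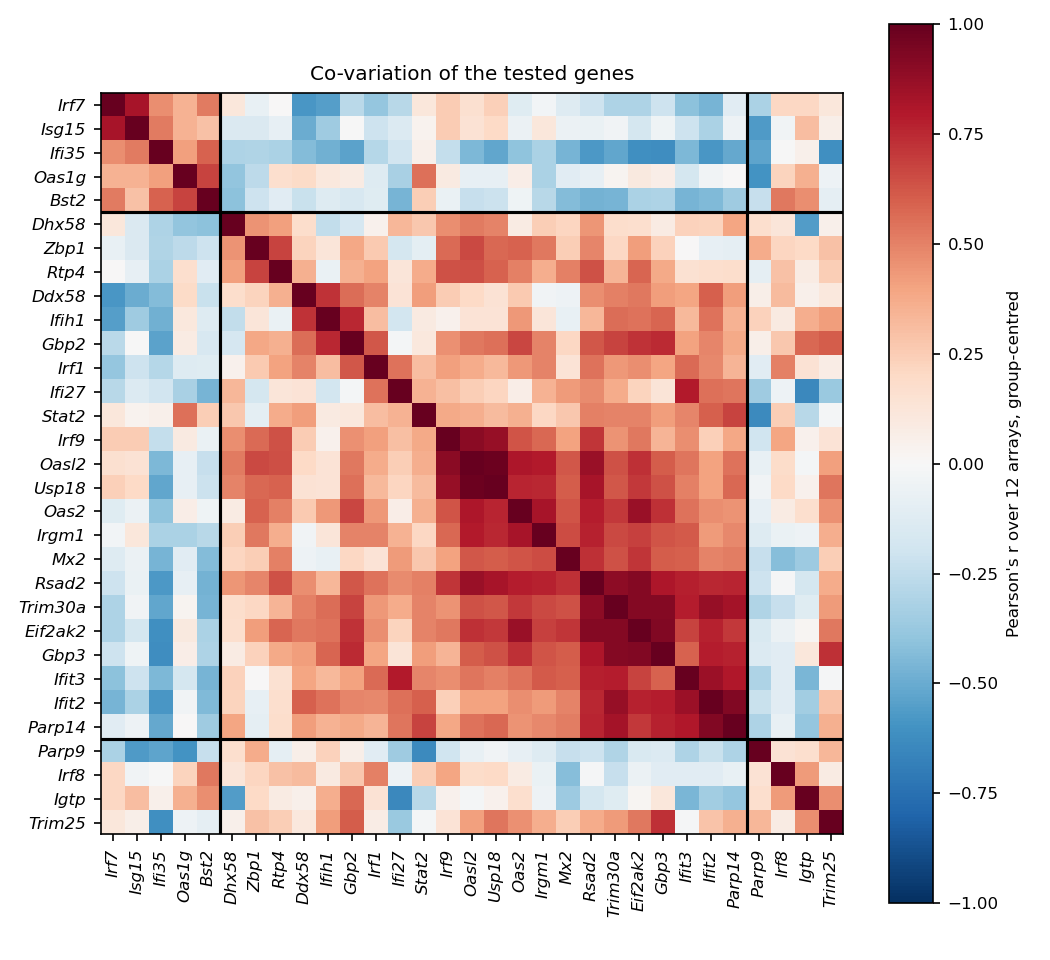
Pearson correlation of group-centred log2 intensity over 12 arrays for every pair of the 31 tested genes (colour), in the order of average-linkage clustering. Irf7, Isg15, Bst2, Oas1g and Ifi35 form a small group of their own, apart from a large group of 22 genes that holds Ifit2, Oasl2, Usp18 and Rsad2.

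Average-linkage clustering cut into 3 groups gave a small cluster of Irf7, Isg15, Bst2, Oas1g and Ifi35, a large one of 22 genes, and a remainder of Irf8, Igtp, Trim25 and Parp9. The small cluster had a median r of 0.49 between its members. Its 5 genes all lay below 0 between ethanol and control, with a median log2 difference of -0.35 (-0.30 without control 4). Its mean was 0.17 ± 0.22 above the overall level in controls, from -0.12 to 0.44, and -0.17 ± 0.23 in ethanol, from -0.44 to 0.10 (SD, n = 6 each). The 22 genes also had a median r of 0.49, with 11 genes on each side of 0 and a median difference of -0.01 (-0.08 without control 4). The clusters were chosen on the same values, so none was tested.

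The clusters tracked the main axis of the arrays differently. With the first principal component of all tested probes, which members are part of, the 22 genes had a median group-centred r of 0.70 (0.65 without control 4), with 22 of 22 above 0 (21 of 22 without control 4), led by Rsad2 at 0.909, Eif2ak2 at 0.891 and Trim30a at 0.886. The 5 genes of the small cluster had a median r of -0.41 (-0.29 without control 4), with 0 of 5 above 0 either way. The part that array quality played in these correlations was not tested. The non-member genes most like the mean of the standardised members, by group-centred r over the 12 arrays, were Brca2 (0.948), Mios (0.943), Lhfpl2 (0.941), Kdm6a (0.938), Trim68 (0.927), Palb2 (0.921), H2bc21 (0.921), Trim34a (0.918), Fermt1 (0.915) and Primpol (0.914). Without control 4 the values of these 10 lay between 0.882 and 0.940.

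Correlation with Irf7 was tested for the 30 other tested members, over 12 arrays and with 100000 permutations (two-sided). Isg15 was the one gene that passed the adjustment over the 30, with a Pearson r of 0.881 (permutation p = 0.00017, adjusted p = 0.0051) and a Spearman rho of 0.881 (permutation p = 0.0003, adjusted p = 0.009). Without ethanol 4 and 5, the arrays farthest from the median of Irf7, r was 0.808, and without control 4 it was 0.872. Within the groups r was 0.832 in controls and 0.869 in ethanol, and 0.821 over all arrays after centring on the group means (permutation, adjusted p = 0.0435). That permutation moved the centred values freely across both groups and made no allowance for the centring. Its p-value can therefore be too small and is not read as passing 0.05. Bst2 followed at r = 0.711 (permutation p = 0.0104, adjusted p = 0.156) and rho = 0.657, with 0.218 in controls and 0.797 in ethanol, and r was 0.535 without ethanol 4 and 5. Oas1g gave r = 0.584 (permutation p = 0.0450, adjusted p = 0.267) and rho = 0.420. For Oas1g the sign of r differed between the groups, at -0.142 in controls and above 0 in ethanol. After centring on the group means its r was 0.346 over all arrays. Without ethanol 4 and 5 its r was 0.537 and its rho was 0.152. The correlation was below 0 for 17 of the 30, among them Ifih1 at -0.565 (permutation p = 0.0565), Eif2ak2 at -0.558, Ifit2 at -0.400 and Rsad2 at -0.238. These rested in part on control 4, without which 9 of the 30 were below 0 and r was -0.386 for Ifih1, -0.346 for Eif2ak2, 0.019 for Ifit2 and 0.077 for Rsad2. Bst2 and Oas1g stood at 0.627 and 0.599 without it.

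**Figure D5:**
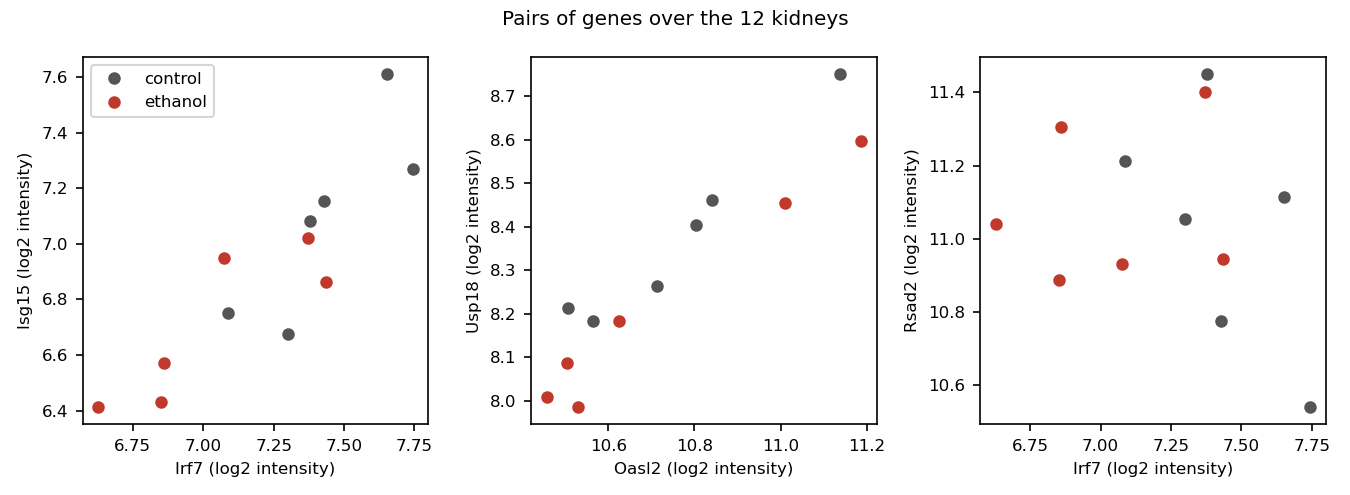
Log2 intensity of Isg15 and of Rsad2 against that of Irf7 on the 12 arrays, with control and ethanol samples marked. The middle panel shows Usp18 against Oasl2. Isg15 follows Irf7 in both groups (r = 0.881), while r for Rsad2 is -0.238 with control 4 and 0.077 without it.

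The genes upstream and beside the set were read from lists of the pathway. Of the interferon ligands, 1 of 8 with a probe was tested, Ifna1, whose tested probes disagreed at -0.19 and 0.245, and Ifnb1 and Ifng were too dim to test. Of 10 tested receptor and JAK-STAT genes, 4 lay below 0 and 1, the phosphatase Ptpn6, was lower at an unadjusted p under 0.05 (-0.31). The receptor chains Ifnar2 and Ifngr1 gave -0.08 and 0.01, and Ifnar1 was never above background. The 3 tested probes of Ifngr2 disagreed, at 0.18 for the brightest and -0.55 and -0.77 for the others. The last had an adjusted p of 0.301 in limma, the smallest of the whole table. Of 11 tested genes that sense pathogens upstream of interferon, 4 lay below 0, and the kinase Tbk1 (0.40) and the ligase Traf6 (0.23) were higher at an unadjusted p under 0.05. Of 26 other tested interferon-induced genes, 19 lay below 0 (73.1%, beside 45.4% of all tested genes), with a median of -0.13. Ifitm2 (-0.30) and Ly6e (-0.25), membrane proteins that act on virus entry, the exonuclease Trex1 (-0.33) and Slfn2 (-0.57) were lower at an unadjusted p under 0.05. In each of these lists 0 genes were called.

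Markers of other cells were read beside the set, and 0 of them were called. Of 12 leukocyte and lymphocyte markers, 9 had a probe and 6 were tested, and 5 of the 6 lay below 0, with a median log2 difference of -0.46. Coro1a (-0.52), Cd52 (-0.41) and the T cell receptor subunits Cd3e (-0.74) and Cd3d (-0.63) were lower at an unadjusted p under 0.05, while Cd2, Ms4a1 and Nkg7 were too dim to test. Of the 6 tested, 3 were above background on all 12 arrays, so signal near background limits this list too. The log2 of the summed intensity of the list ran from 9.70 to 10.3 in controls and from 9.22 to 9.90 in ethanol. The macrophage list had 7 of 9 below 0, a median of -0.08 and log2 summed intensities of 11.77 to 12.02 in controls and 11.50 to 12.03 in ethanol. The complement genes C1qb (-0.29) and C1qc (-0.35) of that list were lower at an unadjusted p under 0.05. For plasmacytoid dendritic cells, a rich source of interferon and of Irf7, 1 of 4 tested markers lay below 0, with a median of 0.19. In that list 0 markers had an unadjusted p under 0.05. Of 7 endothelial markers 4 lay below 0, with a median of -0.03, and Pecam1 (-0.47) and Eng (-0.74) were lower at an unadjusted p under 0.05. The 3 tested red cell markers lay below 0, with a median of -0.20. The 2 tested markers of neutrophils and monocytes lay above 0, and 0 of them were above background on all 12 arrays. The mean of the cluster of Irf7, Isg15, Bst2, Oas1g and Ifi35 correlated over the 12 arrays, after centring on group means, at 0.05 with the leukocyte mean and at -0.23 with the macrophage mean. The part of these cells in the differences between ethanol and control was not tested.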

How the data were processed

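Total RNA of 12 kidneys was hybridised to Illumina arrays. The deposited intensity of each probe, on a linear scale by its values, had been background-subtracted by the authors, and GenomeStudio is the tool in the submitters' processing notes. How the background was taken off and whether arrays were scaled is not given in the sources used here. A second table, with 24 columns of signals and detection p-values, was set aside: none of its headings matches a sample. The design had foreseen its detection p-values, so each array's own low values stood in for them. The mode of each array's values (kernel density, bandwidth 2, below the 0.6 quantile) and the spread under the mode entered a normal-exponential correction with offset 16, before quantile normalization and log2. An error in this step would move dim probes most.

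Above background means a normal upper-tail probability under 0.05 against that background. Probes reaching it on 6 or more of the 12 arrays were tested (23984 of 45281). Symbols came from the platform annotation, with 34885 probes of a single symbol, 18 of several and 10378 unnamed. A gene is given by its brightest probe on average. Ethanol minus control was fitted with lmFit and eBayes of limma 3.58.1 (R 4.3.3, statmod 1.5.0), p-values were adjusted by Benjamini-Hochberg over all tested probes, and single genes also had a two-sided exact permutation test (Python 3.11.15, scipy 1.17.1). The fit was tested on simulated data. The number of arrays limits the precision.

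The members, subgroups and lists were chosen with earlier results of these data known. Values per sample are given for members at an unadjusted p under 0.05, the brightest of a subgroup and the widest in range; other lists give up to 4 genes at an unadjusted p under 0.05, plus receptors. Alternatives were leaving the background uncorrected, offset 50, scaling to the median, unmodified values, an absent or strict filter, averaged probes, array quality weights, a trended robust prior, a replicate block and each array left out. Rank and group-centred correlations, and calls and correlations without control 4, were added after seeing the data. The main comparison used all 12 samples. Promoters came from RefSeq, and probe positions are not given.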

Additional observations from a re-analysis of the deposited data

Results flagged for a closer look

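Samples far from the rest of their group of 6 were sought in the 31 tested genes by the gap to the nearest other sample divided by the group's range, with a limit of 0.625. Of 62 groups, 7 passed, 3 of them through control 4, and chance alone passes about 1 group in 20. Control 4 was the lowest control for Ifit2 (7.91 against 9.36 to 10.1 in log2 intensity, ratio 0.657), for Gbp3 (7.80 against 9.29 to 9.66, ratio 0.802) and for Trim30a (7.27 against 8.54 to 9.21, ratio 0.655). Irf8 was lowest in control 3 (8.64 against 8.86 to 8.95, ratio 0.699). Ifih1 was lowest in ethanol 6 (6.33 against 6.90 to 7.15, ratio 0.697). Ifi35 was lowest in ethanol 2 (5.29 against 5.64 to 5.82, ratio 0.658). Ifi27 was highest in ethanol 4 (12.3 against 11.9 to 12.1, ratio 0.690).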

How the results depend on the processing

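No interferon-stimulated gene was called under any of the 10 other settings or with any of the 12 arrays left out. The smallest adjusted p among members ran from 0.209 to 0.647. Over all probes, the unmodified deposited values gave 1 call (2215 at an unadjusted p under 0.05). The count of members lower at an unadjusted p under 0.05 (4) ran from 1 to 5 with an array left out: it was 2 without control 3 or control 4 and 1 without ethanol 2, 4 or 5. The count of higher members (1) ran from 0 to 2. It was 0 without control 4, ethanol 2 or ethanol 5 and 2 without control 5 or ethanol 1. It was 2 under median scaling, no filter, probes averaged, the trended robust variance prior and the replicate block, and 0 from the unmodified deposited values. With arrays left out, members below 0 ran from 15 to 22 and the median from -0.0962 to 0.00094. With array quality weights the differences of Ifit2, Gbp3 and Parp14 turned to -0.17, -0.0575 and -0.0615, and with probes averaged that of Oasl2 turned to 0.0175. These were 4 of 308 values; the cause was not tested. With an array left out 20 of 372 values turned, in 10 genes: Stat2 (-0.0898 to 0.00537), Ifit2 (-0.26 to 0.18), Ifit3 (-0.17 to 0.0306), Oasl2 (-0.14 to 0.0331), Dhx58 (-0.14 to 0.0110), Zbp1 (-0.11 to 0.0226), Gbp3 (-0.11 to 0.26), Igtp (-0.17 to 0.0235), Parp14 (-0.0844 to 0.0862) and Rsad2 (-0.0359 to 0.15). Whether the replicate numbers pair the samples is not given. The correlation of same-numbered deviations was 0.465 for number 2 and at most 0.0737 for the others. Of the 12 arrays, 2 correlated best with their own number. These values cannot tell whether same-numbered samples shared a litter. The replicate block raised the probes at an unadjusted p under 0.05 from 2915 to 3555, with a smallest adjusted p of 0.0697. The number of arrays limits what could be called, and among the tested members signal near background limits Oas2 and Parp9 most. Ifi35 and Mx2 were above background on every array but dim on some, with lowest log2 intensities of 5.16 (control 2) and 5.43 (control 6).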
